A study of Homo sapiens with 9 samples.

Results

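The insulin-like growth factor axis was followed across 3 breast cancer cell lines, B6TC, the parental MDA-MB-231 cells and the parental ZR-75-1 cells, through 10 genes of its binding proteins, receptors and adaptors, which are IGFBP2, IGFBP3, IGFBP4, IGFBP5, IGFBP6, IGFBP7, IGF1R, INSR, IRS1 and IRS2. The members were all probe sets whose platform annotation names one of these genes and no other, which gave 29 probe sets of 10 genes among 19775 genes measured. RNA was hybridised to Affymetrix U133 Plus 2.0 expression arrays. On these arrays a probe set is a group of short probes that together give 1 value for a transcript, and 3 technical replicates were deposited for each line. B6TC is described as an estrogen-independent, GFP-positive cell line that arose by fusion of the other lines, and it was grown from a tumor formed in a nude mouse without estrogen by GFP-positive cells taken from bone marrow. MDA-MB-231/GFP/Neo is an estrogen receptor (ER) negative line, used here as 1 GFP-positive clone resistant to G418, and ZR-75-1/GFP/puro is an ER positive line whose GFP-positive cells were selected in puromycin. All 3 lines were cultured in the same medium with serum. Each line was thus 1 cell population, and every p-value below measures only the spread between technical replicates.

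The insulin-like growth factors IGF1 and IGF2 act through the receptor tyrosine kinase IGF1R, and insulin acts through its close relative INSR; both receptors phosphorylate the adaptors IRS1 and IRS2, which recruit phosphatidylinositol 3-kinase (PI3K) and so switch on AKT. In body fluids and around cells most of these growth factors are held by binding proteins, the IGFBPs, which can withhold them from the receptor or carry them to it, and which are in turn cut by secreted proteases. In luminal breast cancer cells, estrogen and its receptor are known to raise the expression of IGF1R, IRS1 and several IGFBPs.

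Promoter sequence is shown for the binding protein genes whose values separated the lines most clearly or, for IGFBP4, separated B6TC from both. RefSeq promoters, each reaching from 250 bases before to 50 bases after an annotated start, were matched by symbol for 9 of the 10 members, giving 11 windows of 300 bases; IGFBP7 had no entry. Capitals mark, on either strand, the estrogen response element half-site GGTCA, the E-box CACCTG bound by ZEB and SNAIL factors, and the TATA box TATAAA. On the other strand the half-site appears as TGACC and the E-box appears as CAGGTG. The windows are in genome build GRCh38.p14 and are printed 5′ to 3′ along the gene: IGFBP2 on the plus strand at chr2:216632578-216632877 (start 1) and chr2:216633170-216633469 (start 2), IGFBP5 on the minus strand at chr2:216695500-216695799, IGFBP3 on the minus strand at chr7:45921223-45921522 and IGFBP4 on the plus strand at chr17:40443200-40443499.
IGFBP2 start 1: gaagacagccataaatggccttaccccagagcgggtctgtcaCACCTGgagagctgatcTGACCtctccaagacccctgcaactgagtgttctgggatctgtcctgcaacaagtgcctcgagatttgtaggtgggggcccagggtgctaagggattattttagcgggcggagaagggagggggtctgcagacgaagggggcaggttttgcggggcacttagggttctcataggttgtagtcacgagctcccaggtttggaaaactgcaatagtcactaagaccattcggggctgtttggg
IGFBP2 start 2: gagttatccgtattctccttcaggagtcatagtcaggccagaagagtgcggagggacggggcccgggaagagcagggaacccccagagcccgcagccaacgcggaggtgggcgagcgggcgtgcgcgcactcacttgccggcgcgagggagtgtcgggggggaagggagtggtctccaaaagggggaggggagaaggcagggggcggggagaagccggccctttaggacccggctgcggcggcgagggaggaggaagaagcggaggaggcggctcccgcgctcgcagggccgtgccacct
IGFBP5: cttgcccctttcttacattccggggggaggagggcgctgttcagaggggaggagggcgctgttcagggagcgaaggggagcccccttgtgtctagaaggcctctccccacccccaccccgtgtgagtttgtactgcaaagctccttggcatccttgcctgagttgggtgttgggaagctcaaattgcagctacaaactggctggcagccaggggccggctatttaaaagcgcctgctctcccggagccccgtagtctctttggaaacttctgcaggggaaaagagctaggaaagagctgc
IGFBP3: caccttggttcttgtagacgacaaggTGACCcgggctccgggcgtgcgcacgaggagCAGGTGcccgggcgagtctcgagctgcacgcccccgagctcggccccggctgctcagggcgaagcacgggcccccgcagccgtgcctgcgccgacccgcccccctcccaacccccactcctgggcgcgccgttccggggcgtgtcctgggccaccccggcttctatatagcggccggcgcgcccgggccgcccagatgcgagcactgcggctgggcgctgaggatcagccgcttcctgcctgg
IGFBP4: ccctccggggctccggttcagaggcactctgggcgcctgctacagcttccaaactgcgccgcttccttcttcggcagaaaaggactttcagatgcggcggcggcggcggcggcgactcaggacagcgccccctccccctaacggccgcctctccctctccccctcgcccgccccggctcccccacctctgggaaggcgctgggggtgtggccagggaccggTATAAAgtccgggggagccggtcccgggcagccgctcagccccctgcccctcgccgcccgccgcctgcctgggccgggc

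The half-site GGTCA occurred in 2 of the 11 windows, those of IGFBP2 start 1 and IGFBP3, and in 37.4% of 35116 promoters of the same length. The E-box CACCTG occurred in 3 of the 11 windows, those of IGFBP2 start 1, IGFBP3 and IGFBP6, and in 20.6% of all promoters. TATAAA was found in the IGFBP4 window alone and in 11.5% of all promoters, the AP-1 motif TGANTCA was in none of the 11 windows and in 7.71% of all promoters, and the GC box GGGCGG was in 9 of the 11 windows and in 45.0% of all promoters. The capitals of different motifs do not overlap in the printed windows. The windows of IGF1R, IRS2, IRS1 and INSR held 55, 50, 47 and 36 CG dinucleotides, against a median of 14 over all promoters, while those of the binding protein genes held between 6 (IGFBP2 start 3) and 36 (IGFBP3), with 30 for IGFBP4, 28 for IGFBP2 start 2, 12 for IGFBP6, 9 for IGFBP5 and 8 for IGFBP2 start 1. IGFBP2 and IGFBP5 lie next to each other on chromosome 2 on opposite strands with no annotated gene between them, and IGFBP3 lies next to IGFBP1 on chromosome 7. A match is a description of the letters and not a binding site.

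Values are the deposited log2 signals, so 1 unit is a 2-fold difference, and signals near the bottom of the scale are compressed, so that a difference that reaches below 6 depends on where the floor of that probe set lies and can be smaller than the true one. Levels were compared between lines for the same probe set and never between probe sets. A probe set was tested where it reached 6 on at least 3 of the 9 arrays, a rule met by 21095 probe sets in all and by 18 of the 29 member probe sets. Of the 11 that were not tested, 8 stayed under 6 on all arrays. Of the 18 tested, 4 passed through 1 line only, the single line with all 3 arrays at 6 or more. These were IGFBP2 and both tested IGFBP5 probe sets through ZR-75-1, and INSR 226216_at through MDA-MB-231. A difference between lines was thus built into their passing. The median SD between arrays of a line was 0.064 over tested probe sets, and array medians lay between 4.89 and 4.96.

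The labelled ER status of the parental lines was checked on marker genes. The mean over 8 luminal markers was 5.95, 6.03 and 6.20 for MDA-MB-231, far below the 11.18, 11.30 and 11.22 for ZR-75-1, whereas 7 mesenchymal markers averaged between 10.84 and 10.92 in MDA-MB-231 cells and between 4.76 and 4.93 in ZR-75-1 cells. ESR1 itself was read at its brightest probe set, 211234_x_at, a type that can read several transcripts. There it was 0.55 higher in ZR-75-1 than in MDA-MB-231. Other ESR1 probe sets are not given here, so this value does not show how far ESR1 RNA separated the parental lines. The paper reports the receptor protein as high in the ER positive line and absent in the ER negative line. B6TC sat with MDA-MB-231 on the mesenchymal list, at 11.0 to 11.03, and 4 measured blood cell markers stayed under 6 on every array. B6TC array 3 stood apart from the other B6TC arrays: its luminal mean was 7.38, against 6.10 and 6.01 on arrays 1 and 2, and 7 of the 8 luminal markers had their highest B6TC value there. A set of 226 tested probe sets had a mean of at least 8 in ZR-75-1 and under 6 in MDA-MB-231, with a difference of at least 3. Of these, 213 (94.2%) were higher on B6TC array 3 than on the mean of arrays 1 and 2. The median excess over the set was 0.38, and the share over all tested probe sets was not computed. Member values are therefore given for each array, and those that rest on B6TC array 3 are given with and without it.

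The members differed by less between B6TC and MDA-MB-231 than between B6TC and ZR-75-1. Against ZR-75-1, 16 of 18 tested member probe sets differed in B6TC (limma, adjusted p of 0.05 or less), 10 higher and 6 lower, where 83.7% of all tested probe sets differed (43.0% higher and 40.6% lower); 15 of the 18 differed by at least 2-fold, where 30.7% of all tested probe sets did. Against MDA-MB-231, 12 of 18 differed, 5 higher and 7 lower, where 65.1% of all probe sets differed (33.9% higher and 31.3% lower), so the members' share of 66.7% was close to that background. Without B6TC array 3 the members called were 4 higher and 8 lower against MDA-MB-231, where 61.6% of all probe sets were called, and 10 higher and 6 lower against ZR-75-1, where 81.6% were. Among the tested member probe sets only IGFBP4 was called at least 2-fold from MDA-MB-231, where 3.85% of all tested probe sets were; IGF1R 243358_at, which did not pass the filter, was also past that fold and is described below. The parental lines differed from each other at 18 of 18 member probe sets (MDA-MB-231 higher at 12 and lower at 6), where again 83.7% of all probe sets differed (43.8% higher and 39.9% lower), and 12 of the 18 by at least 2-fold, where 31.5% of all did. The arrays of the compared lines did not overlap at 13 of 18 member probe sets for B6TC against MDA-MB-231 (70.4% of all tested probe sets), at 16 for B6TC against ZR-75-1 (86.5% of all) and at 18 for the parental lines (84.9% of all). The median size of the difference over the tested member probe sets was 0.44 between B6TC and MDA-MB-231 and 1.64 between B6TC and ZR-75-1, against 0.26 and 0.59 over all tested probe sets. The comparisons share arrays and are not independent of each other. Of the 18 probe sets, 4 passed the filter through 1 line only, so their difference from that line was built into these counts. The members were also chosen with earlier results of these data known. Whether the members differed more than other probe sets was not tested.

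**Figure D1:**
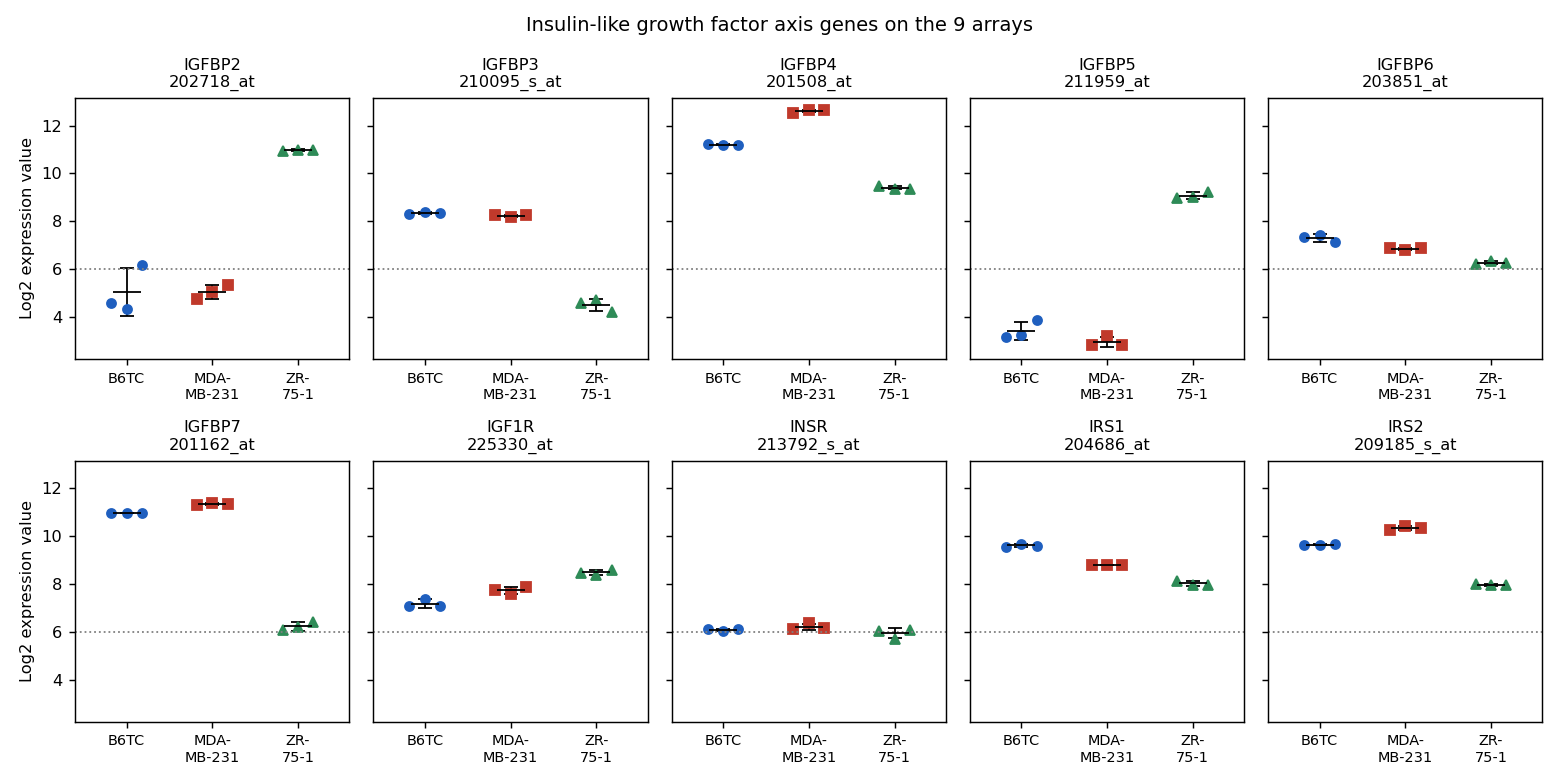
Log2 expression value of 1 probe set for each of the 10 genes on the 3 arrays of B6TC cells (circles), of MDA-MB-231 cells (squares) and of ZR-75-1 cells (triangles), with the mean and SD (n = 3 arrays) and a dotted line at 6, the level of the filter. The B6TC points of IGFBP3 and IGFBP7 lie beside those of MDA-MB-231 and far above ZR-75-1, IGFBP4 lies between the parental lines, and IRS1 is highest in B6TC; levels cannot be compared between panels.

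IGFBP7 was high in B6TC and MDA-MB-231 cells but low in ZR-75-1 cells. It codes for a secreted protein that binds insulin-like growth factors weakly and is found in the matrix around vessels. At 201163_s_at the value was 11.07, 11.01 and 10.94 on the B6TC arrays and 11.18, 10.97 and 10.97 on the MDA-MB-231 arrays, against 2.44, 2.88 and 2.48 on the ZR-75-1 arrays. B6TC and MDA-MB-231 overlapped and ZR-75-1 was near the bottom of the scale. B6TC exceeded ZR-75-1 by 8.41 (SE 0.11, limma adjusted p = 1.48e-12), a size that depends on the floor of this probe set. The second probe set, 201162_at, was 10.96, 10.96 and 10.95 in B6TC, 11.30, 11.39 and 11.36 in MDA-MB-231 cells and 6.07, 6.18 and 6.40 in ZR-75-1. There the B6TC arrays all lay below those of MDA-MB-231, by 0.39 (SE 0.075, limma adjusted p = 0.00107), and above ZR-75-1 by 4.74 (26.7-fold). At 201163_s_at the difference between B6TC and MDA-MB-231 was -0.03, with a 95% interval of -0.28 to 0.21 and a limma adjusted p of 0.81. The probe sets thus gave the same order for ZR-75-1 and did not both call the small decrease against MDA-MB-231. The remaining probe set, 213910_at, stayed between 2.44 and 3.77 in all lines and was not tested.

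IGFBP3 was also high in B6TC and MDA-MB-231 cells but low in ZR-75-1 cells. Its protein is the main carrier of insulin-like growth factors in blood. At 210095_s_at it was 8.29, 8.38 and 8.34 in B6TC and 8.27, 8.16 and 8.25 in MDA-MB-231, against 4.56, 4.70 and 4.21 in ZR-75-1. The B6TC arrays lay just above the MDA-MB-231 arrays and did not overlap them, but the difference of 0.11 (95% interval -0.12 to 0.35) was not called (limma adjusted p = 0.373). B6TC exceeded ZR-75-1 by 3.85 (SE 0.11, limma adjusted p = 1.82e-10). At 212143_s_at the values were 7.41, 7.43 and 7.36 in B6TC, 7.91, 7.85 and 7.70 in MDA-MB-231 cells and 4.80, 5.19 and 5.17 in ZR-75-1. Here all B6TC arrays lay below all MDA-MB-231 arrays, by 0.42 (SE 0.10, limma adjusted p = 0.00421), and above ZR-75-1 by 2.35. The 2 probe sets therefore differed in whether B6TC stood below MDA-MB-231, and the mean over both gave a difference of -0.15 that was not called (limma adjusted p = 0.0859).

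IGFBP4, whose protein restrains insulin-like growth factor action until it is cut by the protease PAPPA, took an intermediate level in B6TC. Its 1 probe set, 201508_at, read 11.22, 11.18 and 11.19 in B6TC, 12.55, 12.64 and 12.65 in MDA-MB-231 cells and 9.47, 9.36 and 9.37 in ZR-75-1. The lines were fully apart, with the arrays of each line close together. B6TC was 2.66-fold lower than MDA-MB-231 (log2 difference -1.41, SE 0.049, limma adjusted p = 2.49e-08) and 3.48-fold higher than ZR-75-1 (1.8, SE 0.049, limma adjusted p = 1.71e-10). The decrease against MDA-MB-231 ranked 241st by size among the 21095 probe sets. On the log2 scale B6TC lay 0.44 of the way down from MDA-MB-231 to ZR-75-1. MDA-MB-231 itself exceeded ZR-75-1 9.26-fold.

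IGFBP2 ran the other way, high in ZR-75-1 and low in the other lines; it codes for a binding protein that is secreted by many epithelial cancer cells. At 202718_at the B6TC arrays read 4.58, 4.33 and 6.17 and the MDA-MB-231 arrays 4.74, 5.05 and 5.34, against 10.94, 10.99 and 11.0 in ZR-75-1. B6TC array 3 was the highest of the 6 values outside ZR-75-1 and exceeded the mean of B6TC arrays 1 and 2 by 1.72, and MDA-MB-231 array 3 exceeded the mean of its arrays 1 and 2 by 0.45, whereas B6TC arrays 1 and 2 were below all MDA-MB-231 arrays. B6TC was 5.95 (SE 0.39) lower than ZR-75-1, the line through which this probe set passed the filter, so a difference was built in. Against MDA-MB-231 the difference was -0.02 with a 95% interval of -0.89 to 0.86 (limma adjusted p = 0.97). Without B6TC array 3 it was -0.59 (limma adjusted p = 0.00763), so that 1 array decided whether B6TC was called lower. On the same array the luminal markers TFF1 and CDH1 read 9.08 and 6.89, against 5.04 and 3.38 on B6TC array 1 and 4.98 and 3.26 on B6TC array 2. MDA-MB-231 array 3 exceeded the mean of its other arrays at TFF1 (by 0.98) and CDH1 (by 0.45). At the other luminal markers that difference lay between -0.12 (ESR1) and 0.17 (GATA3). Whether MDA-MB-231 array 3 was raised in general was not tested. The part of these markers in the IGFBP2 values was not tested.

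IGFBP5, the neighbour of IGFBP2 on chromosome 2 and a binding protein held in the matrix, was likewise high in ZR-75-1. At 211959_at it was 3.15, 3.25 and 3.86 in B6TC and 2.83, 3.19 and 2.81 in MDA-MB-231, against 8.97, 9.02 and 9.23 in ZR-75-1. The B6TC and MDA-MB-231 arrays overlapped near the bottom of the scale, and B6TC array 3 was again the highest of the 6. B6TC lay 5.65 (SE 0.17) below ZR-75-1, the line through which both tested IGFBP5 probe sets passed the filter, so a difference was built in. The call of B6TC above MDA-MB-231, by 0.48 (SE 0.17, limma adjusted p = 0.0342), rested on few arrays: the difference was 0.26 (limma adjusted p = 0.0905) without B6TC array 3, 0.42 (limma adjusted p = 0.102) without MDA-MB-231 array 1 and 0.41 (limma adjusted p = 0.107) without MDA-MB-231 array 3. At 203424_s_at the values were 3.92, 4.34 and 4.34 in B6TC, 3.91, 3.91 and 4.13 in MDA-MB-231 cells and 6.96, 6.63 and 6.95 in ZR-75-1. B6TC was lower than ZR-75-1 there by 2.65. Its difference from MDA-MB-231 of 0.22 (95% interval -0.07 to 0.51) was not called (limma adjusted p = 0.163). Without B6TC array 1 that difference was 0.36 and was called (limma adjusted p = 0.0182). The brightest probe set on average, 211958_at, read 4.78, 4.64 and 5.06 in B6TC, 4.74, 4.88 and 4.89 in MDA-MB-231 cells and 5.81, 6.07 and 6.14 in ZR-75-1, and was not tested because only 2 arrays reached 6. All 3 other IGFBP5 probe sets stayed under 6 on every array, with the ZR-75-1 arrays above all B6TC and MDA-MB-231 arrays. At 203425_s_at all B6TC arrays lay below all MDA-MB-231 arrays. That difference of -0.51 was called when no filter was used (SE 0.12, limma adjusted p = 0.00758). In the same fit 211959_at (0.48), 211958_at (-0.01), 203426_s_at (-0.08) and 1555997_s_at (0.1) were not called. The direction of IGFBP5 between B6TC and MDA-MB-231 thus depended on the probe set, with both lines below 6.

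**Figure D2:**
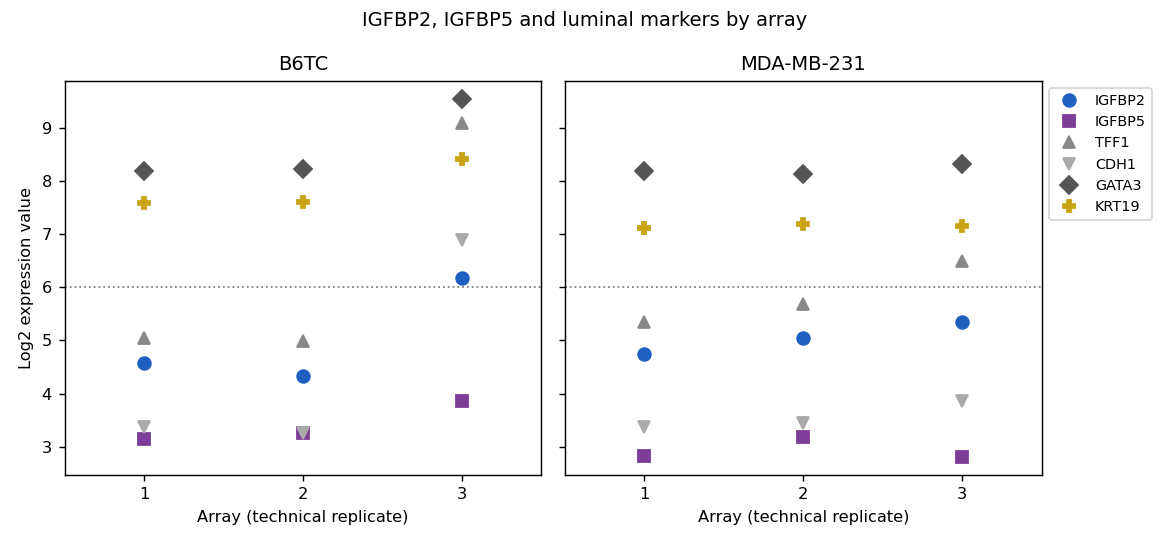
Log2 expression value on each technical replicate array of B6TC (left) and MDA-MB-231 (right) for IGFBP2 (202718_at), IGFBP5 (211959_at) and 4 luminal marker genes, with a dotted line at 6. On B6TC array 3 IGFBP2 reached 6.17 and TFF1 9.08, above their values on B6TC arrays 1 and 2; each symbol should be followed across arrays and not compared with other symbols.

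IGFBP6 was highest in B6TC. Its protein prefers IGF2 over IGF1. At 203851_at it read 7.34, 7.44 and 7.13 in B6TC, 6.86, 6.81 and 6.88 in MDA-MB-231 cells and 6.22, 6.35 and 6.26 in ZR-75-1. The 3 lines did not overlap, although B6TC array 3 was the lowest of its line. B6TC exceeded MDA-MB-231 by 0.45 (1.37-fold, SE 0.075, limma adjusted p = 4.38e-04) and ZR-75-1 by 1.03 (2.04-fold, SE 0.075, limma adjusted p = 3.37e-07).

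Among the receptors, IGF1R was lower in B6TC cells than in ZR-75-1 cells at every tested probe set, but its probe sets gave opposite directions against MDA-MB-231. At 225330_at, the brightest on average, B6TC read 7.08, 7.39 and 7.08, MDA-MB-231 7.75, 7.59 and 7.87 and ZR-75-1 8.47, 8.38 and 8.58. B6TC was the lowest line here, 1.47-fold below MDA-MB-231 (log2 difference -0.55, SE 0.10, limma adjusted p = 7.45e-04) and 2.45-fold below ZR-75-1 (-1.29, limma adjusted p = 5.19e-07). At 203627_at B6TC read 7.20, 7.32 and 7.21, MDA-MB-231 6.46, 6.35 and 6.40 and ZR-75-1 8.67, 8.75 and 8.66. B6TC lay between the parental lines without overlap, 1.79-fold above MDA-MB-231 (0.84, SE 0.053, limma adjusted p = 7.86e-07) and 2.74-fold below ZR-75-1. At 203628_at the order was the same, with 6.55, 6.44 and 6.5 in B6TC, 6.25, 6.38 and 6.26 in MDA-MB-231 cells and 7.70, 7.67 and 7.63 in ZR-75-1. The increase over MDA-MB-231 was smaller there, at 0.20 (SE 0.051, limma adjusted p = 0.00626). At 243358_at, which was not tested, B6TC read 4.96, 4.9 and 4.78, MDA-MB-231 6.19, 6.13 and 5.97 and ZR-75-1 5.55, 5.57 and 5.63, so B6TC was again the lowest and MDA-MB-231 the highest. B6TC was 2.33-fold below MDA-MB-231 there, a log2 difference of -1.22 that was called when no filter was used (SE 0.076, limma adjusted p = 1.61e-06). The fifth probe set, 208441_at, stayed between 3.94 and 4.40 on all arrays. The direction of IGF1R between B6TC and MDA-MB-231 thus depended on the probe set, and the files do not say which part of the transcript each one reads. The mean over all IGF1R probe sets gave a difference of -0.18 from MDA-MB-231, which was called (limma adjusted p = 0.00352) although single probe sets went both ways.

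INSR was lower in B6TC cells than in MDA-MB-231 at 1 of its 2 tested probe sets. At 213792_s_at it was 6.11, 6.04 and 6.12 in B6TC, 6.11, 6.36 and 6.16 in MDA-MB-231 cells and 6.04, 5.70 and 6.06 in ZR-75-1. The B6TC arrays overlapped those of both other lines, and the differences of B6TC from MDA-MB-231 (-0.12, 95% interval -0.34 to 0.10, limma adjusted p = 0.311) and from ZR-75-1 (0.16, 95% interval -0.06 to 0.37, limma adjusted p = 0.162) were not called. MDA-MB-231 exceeded ZR-75-1 by 0.27 (limma adjusted p = 0.0239), a call lost without MDA-MB-231 array 2 (0.20, limma adjusted p = 0.0973) or ZR-75-1 array 2 (0.16, limma adjusted p = 0.0757). At 226216_at, B6TC read 5.61, 5.73 and 5.87, MDA-MB-231 6.32, 6.5 and 6.49 and ZR-75-1 5.64, 5.85 and 5.50. B6TC lay with ZR-75-1 there (0.07, 95% interval -0.14 to 0.29, limma adjusted p = 0.488). B6TC was 1.62-fold below MDA-MB-231, the line through which this probe set passed the filter, so a difference was built in. 226216_at was the only tested member probe set where B6TC was called different from MDA-MB-231 and not from ZR-75-1. The other 3 INSR probe sets stayed under 6 on every array, and the mean over all 5 was lower in B6TC by 0.28 (limma adjusted p = 0.00365).

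The adaptors were above 6 in all lines at their brightest probe sets, where IRS1 was higher and IRS2 lower in B6TC cells than in MDA-MB-231 cells. IRS1 at 204686_at was 9.55, 9.69 and 9.58 in B6TC, 8.78 on each MDA-MB-231 array and 8.14, 7.95 and 7.97 in ZR-75-1. B6TC was the highest line without overlap, 1.77-fold above MDA-MB-231 (log2 difference 0.82, SE 0.060, limma adjusted p = 1.85e-06) and 3.00-fold above ZR-75-1 (1.59, SE 0.060, limma adjusted p = 1.92e-09). A second IRS1 probe set, 238933_at, did not show this increase: it read 6.46, 6.43 and 6.44 in B6TC, 6.89, 6.58 and 6.56 in MDA-MB-231 cells and 5.92, 5.60 and 5.76 in ZR-75-1. All B6TC arrays lay just below all MDA-MB-231 arrays there, by 0.23 (95% interval -0.45 to -0.02, limma adjusted p = 0.0568), and above ZR-75-1 by 0.68 (limma adjusted p = 7.04e-05). That difference was called without MDA-MB-231 array 3 (-0.29, limma adjusted p = 0.0393), without ZR-75-1 array 1 (limma adjusted p = 0.0413) and without ZR-75-1 array 2 (limma adjusted p = 0.0414). The third, 242979_at, was not tested; it read 5.76, 5.62 and 5.31 in B6TC, 6.12, 5.98 and 5.65 in MDA-MB-231 cells and 4.81, 4.97 and 5.21 in ZR-75-1. The increase of IRS1 over MDA-MB-231 was therefore seen at 1 of 3 probe sets, and the mean over its probe sets gave 0.08 (limma adjusted p = 0.365), whereas all 3 placed B6TC above ZR-75-1.

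**Figure D3:**
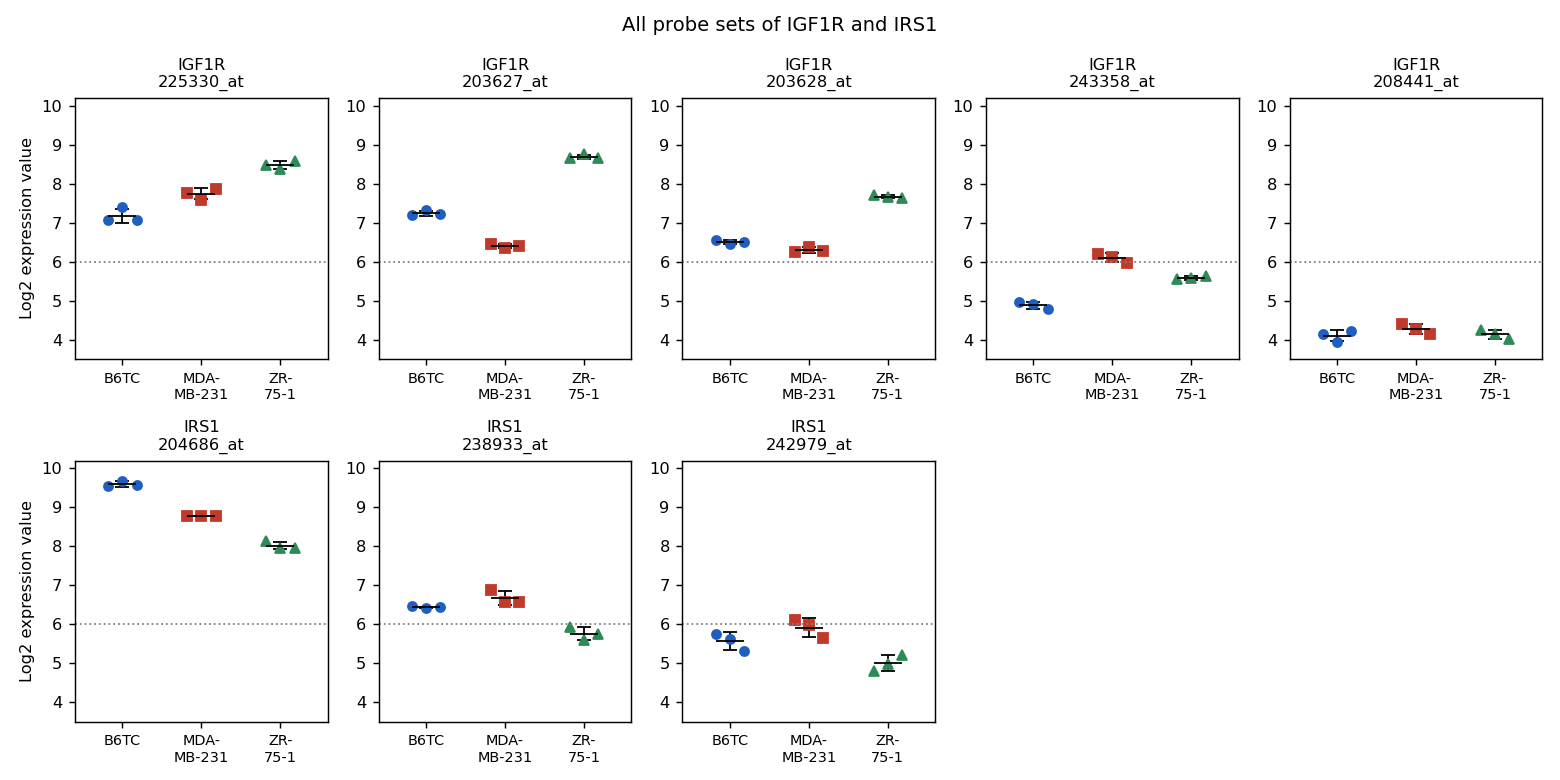
Log2 expression value of every probe set of IGF1R (top) and IRS1 (bottom) on the 3 arrays of each line, with B6TC on the left and with the mean and SD (n = 3 arrays) and a dotted line at 6. B6TC lies below both other lines at IGF1R 225330_at (mean 7.18) and between them at 203627_at (mean 7.24), and it is the highest line at IRS1 204686_at (mean 9.61) but not at the other IRS1 probe sets.

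IRS2 gave the same order at both of its probe sets, with B6TC between the parental lines. At 209185_s_at it was 9.63, 9.64 and 9.66 in B6TC, 10.24, 10.42 and 10.34 in MDA-MB-231 cells and 7.99, 7.95 and 7.95 in ZR-75-1. No lines overlapped, and B6TC was 1.62-fold below MDA-MB-231 (log2 difference -0.69, SE 0.050, limma adjusted p = 1.76e-06) and 3.20-fold above ZR-75-1 (1.68, limma adjusted p = 3.37e-10). At 209184_s_at it was 7.50, 7.43 and 7.45 in B6TC, 8.32, 8.28 and 8.42 in MDA-MB-231 cells and 6.31, 6.36 and 6.15 in ZR-75-1. The decrease against MDA-MB-231 was 1.84-fold there (-0.88, SE 0.063, limma adjusted p = 1.65e-06) and the increase over ZR-75-1 was 2.28-fold.

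**Figure D4:**
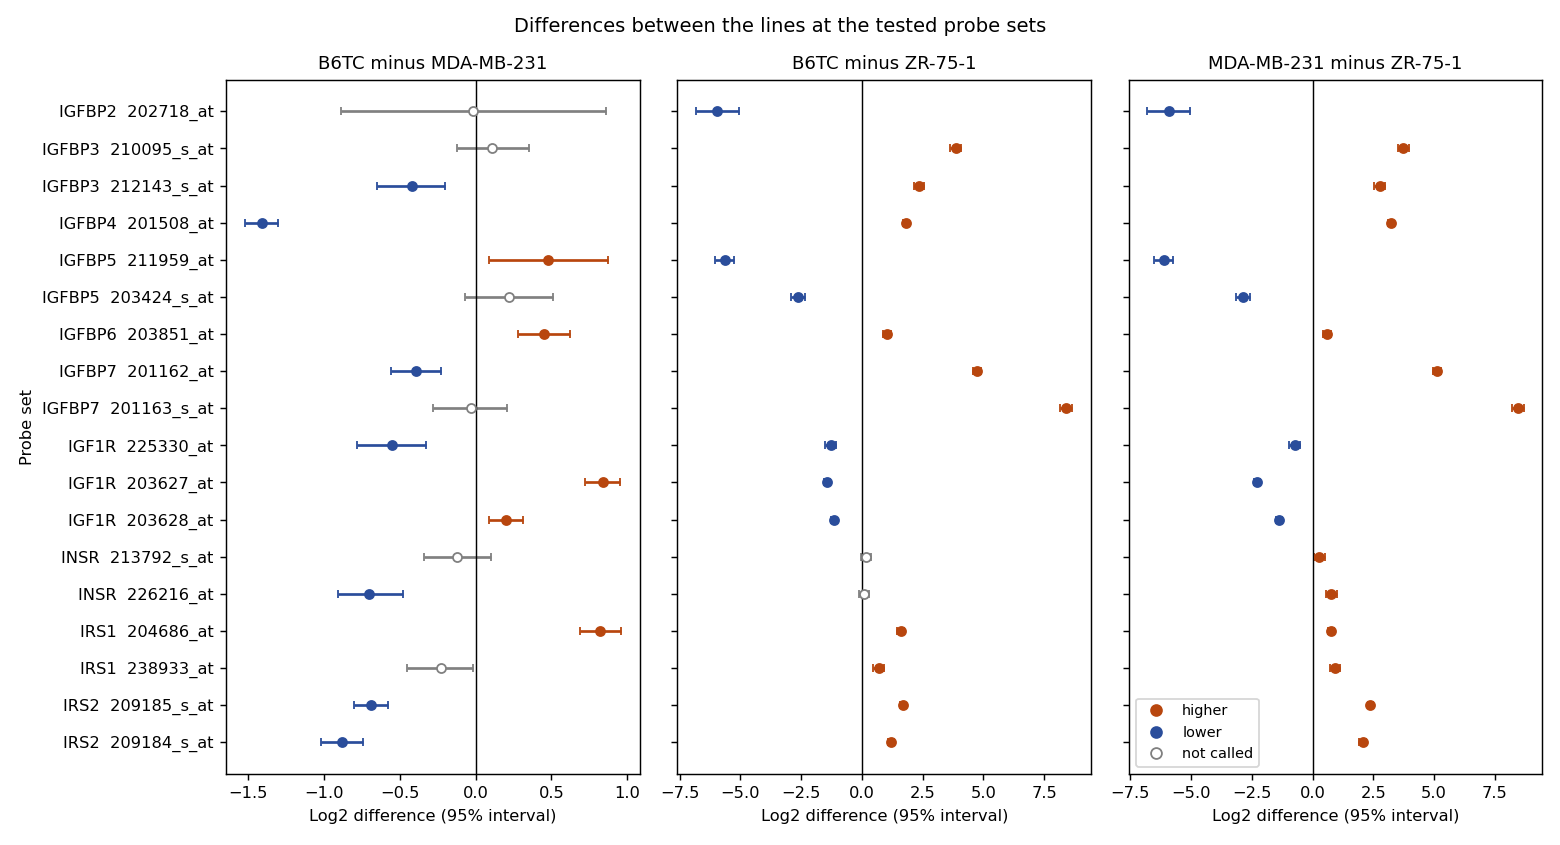
Log2 differences with 95% intervals at the 18 tested member probe sets for B6TC minus MDA-MB-231, B6TC minus ZR-75-1 and MDA-MB-231 minus ZR-75-1, colored by the limma call (adjusted p of 0.05 or less) and open where not called; the first panel has a narrower axis. Against MDA-MB-231 only IGFBP4 passes -1, while against ZR-75-1 the differences reach -5.95 for IGFBP2 and 8.41 for IGFBP7.

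Counted over the tested probe sets, B6TC lay between the parental lines at 8 of 18 (IGFBP3 212143_s_at, IGFBP4, IGFBP5 211959_at, IGFBP7 201162_at, IGF1R 203627_at and 203628_at, and both of IRS2), where 21.8% of all tested probe sets did. It lay above both at 2 (IGFBP6 and IRS1 204686_at), where 18.6% of all did, and below both at 1 (IGF1R 225330_at), where 15.4% of all did. At 5 it was called different from ZR-75-1 only, where 27.8% of all tested probe sets were. At 1 (INSR 226216_at) it was called different from MDA-MB-231 only (9.32% of all) and at 1 (INSR 213792_s_at) from neither (7.02% of all). Without B6TC array 3, B6TC lay between the parental lines at 7 (19.1% of all tested probe sets), without IGFBP5 211959_at, above both at 2 (18.1% of all) and below both at 2 (14.6% of all), IGFBP2 being added. A call of different from ZR-75-1 only does not show that B6TC and MDA-MB-231 were equal.

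The wider pathway was described with a list of 56 further genes of ligands, proteases, IGF2 mRNA-binding proteins, adaptors and the route from PI3K to mTOR. Of these, 51 were measured and 39 tested, each by its brightest probe set; the other 5 were not analysed here. Against MDA-MB-231, 27 of 39 were called in B6TC, 14 higher and 13 lower (65.1% of all genes were called, namely 36.5% up and 28.6% down), with a median difference of 0.01, against 0.04 over all genes. Against ZR-75-1, 35 of 39 were called, 17 higher and 18 lower (84.4% of all genes, namely 42.8% up and 41.5% down), with a median of 0.04, against 0.00 over all genes. Of the 39 tested, 4 reached 6 in 1 line only, PAPPA in MDA-MB-231 and STC2, GRB14 and GAB1 in ZR-75-1. Their difference from that line was built into their passing. CBLB had all 3 arrays at 6 or more in ZR-75-1 only, and B6TC reached 6 there on some arrays (6.24, 6.29 and 5.89), so CBLB too passed through 1 line. The genes named below were chosen by the size of their difference and by role. IGF1, the ligand, was not tested, since it averaged 5.24 in B6TC, 5.43 in MDA-MB-231 cells and 5.25 in ZR-75-1.

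Among the ligand carriers, IGFBP1, the neighbour of IGFBP3 on chromosome 7 and an insulin-regulated binding protein, was high in B6TC (9.76, 9.80 and 9.70) and MDA-MB-231 (9.30, 9.35 and 9.35) but low in ZR-75-1 (4.2, 4.15 and 4.49). B6TC was above both, by 0.42 over MDA-MB-231 (SE 0.080, limma adjusted p = 0.00107) and by 5.47 over ZR-75-1 (limma adjusted p = 2.80e-12). IGF2R, which takes IGF2 into the cell for breakdown, was 1.54-fold higher in B6TC cells than in ZR-75-1 and differed from MDA-MB-231 by 0.07, which was not called (limma adjusted p = 0.432).

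Of the proteases that cut binding proteins, HTRA1 was lowest in B6TC cells. HTRA1, a secreted serine protease that cleaves IGFBPs, read 7.08, 7.05 and 7.09 in B6TC, 8.32, 8.42 and 8.42 in MDA-MB-231 cells and 8.13, 8.13 and 8.05 in ZR-75-1, so that B6TC was below both. The decrease against MDA-MB-231 was 2.49-fold (log2 difference -1.31, SE 0.046, limma adjusted p = 2.71e-08), the largest on the list and its only one of at least 2-fold. Over all 10698 tested genes, 397 were called at least 2-fold from MDA-MB-231. PAPPA, the protease of IGFBP4, averaged 5.74 in B6TC, 6.30 in MDA-MB-231 cells and 4.78 in ZR-75-1, so that B6TC was higher than ZR-75-1 by 0.96 (limma adjusted p = 8.85e-06); it lay below MDA-MB-231, the line through which this gene passed the filter. PAPPA2 and ADAM12 were not tested. STC1 and STC2, the stanniocalcins that inhibit PAPPA, were both highest in ZR-75-1 but differed in pattern. STC2 averaged 4.59 in B6TC and 4.51 in MDA-MB-231 (not called, limma adjusted p = 0.735), against 9.09 in ZR-75-1 cells. STC1 averaged 9.36 in B6TC, 8.83 in MDA-MB-231 cells and 9.53 in ZR-75-1. There B6TC was 1.45-fold above MDA-MB-231 (limma adjusted p = 2.03e-05) and slightly below ZR-75-1 (log2 difference -0.17, limma adjusted p = 0.0194). FURIN, a convertase that matures the receptor precursors, was the lowest in B6TC, 1.92-fold below MDA-MB-231 (-0.94, SE 0.077, limma adjusted p = 3.59e-06).

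The IGF2 mRNA-binding proteins separated ZR-75-1 from the other lines. IGF2BP3 was 8.36, 8.31 and 8.31 in B6TC and 8.92, 8.78 and 8.81 in MDA-MB-231, against 2.70, 2.44 and 2.91 in ZR-75-1. B6TC was above ZR-75-1 by 5.64 (SE 0.098, limma adjusted p = 8.78e-12) and 1.43-fold below MDA-MB-231. IGF2BP2 was highest in B6TC, 1.53-fold above MDA-MB-231 and 5.34-fold above ZR-75-1. IGF2BP1 was not tested.

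Downstream of the receptors, the adaptor GRB14, which inhibits insulin receptor signalling, was low in B6TC (4.21, 4.09 and 4.32) and MDA-MB-231 (3.14, 3.16 and 3.5) but high in ZR-75-1 (7.71, 7.78 and 7.75). B6TC was above MDA-MB-231 by 0.93 (SE 0.095, limma adjusted p = 1.59e-05), the largest increase on the list, though both lines were below 6. The adaptor SHC1 and the phosphatase PTPN11 were highest in B6TC, with increases over MDA-MB-231 of 1.42-fold and 1.29-fold and over ZR-75-1 of 2.20-fold and 2.71-fold. AKT1, a kinase that PI3K switches on, read 7.69, 7.76 and 7.79 in B6TC, 8.62, 8.72 and 8.68 in MDA-MB-231 cells and 9.46, 9.45 and 9.39 in ZR-75-1. B6TC was thus the lowest line, 1.91-fold below MDA-MB-231 (-0.93, SE 0.048, limma adjusted p = 2.54e-07) and 3.22-fold below ZR-75-1. AKT2, its close relative, was named after its values were seen: it averaged 7.79 in B6TC cells, 8.33 in MDA-MB-231 cells and 6.29 in ZR-75-1 cells, so that B6TC was 1.45-fold below MDA-MB-231 (limma adjusted p = 1.16e-05) and 2.83-fold above ZR-75-1 (limma adjusted p = 1.01e-09). RPS6KB1, the ribosomal S6 kinase, was also lowest in B6TC, 1.29-fold below MDA-MB-231 and 7.38-fold below ZR-75-1, while PIK3CD, a catalytic subunit of PI3K, was highest in B6TC, 1.28-fold above MDA-MB-231 and 6.10-fold above ZR-75-1.

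**Figure D5:**
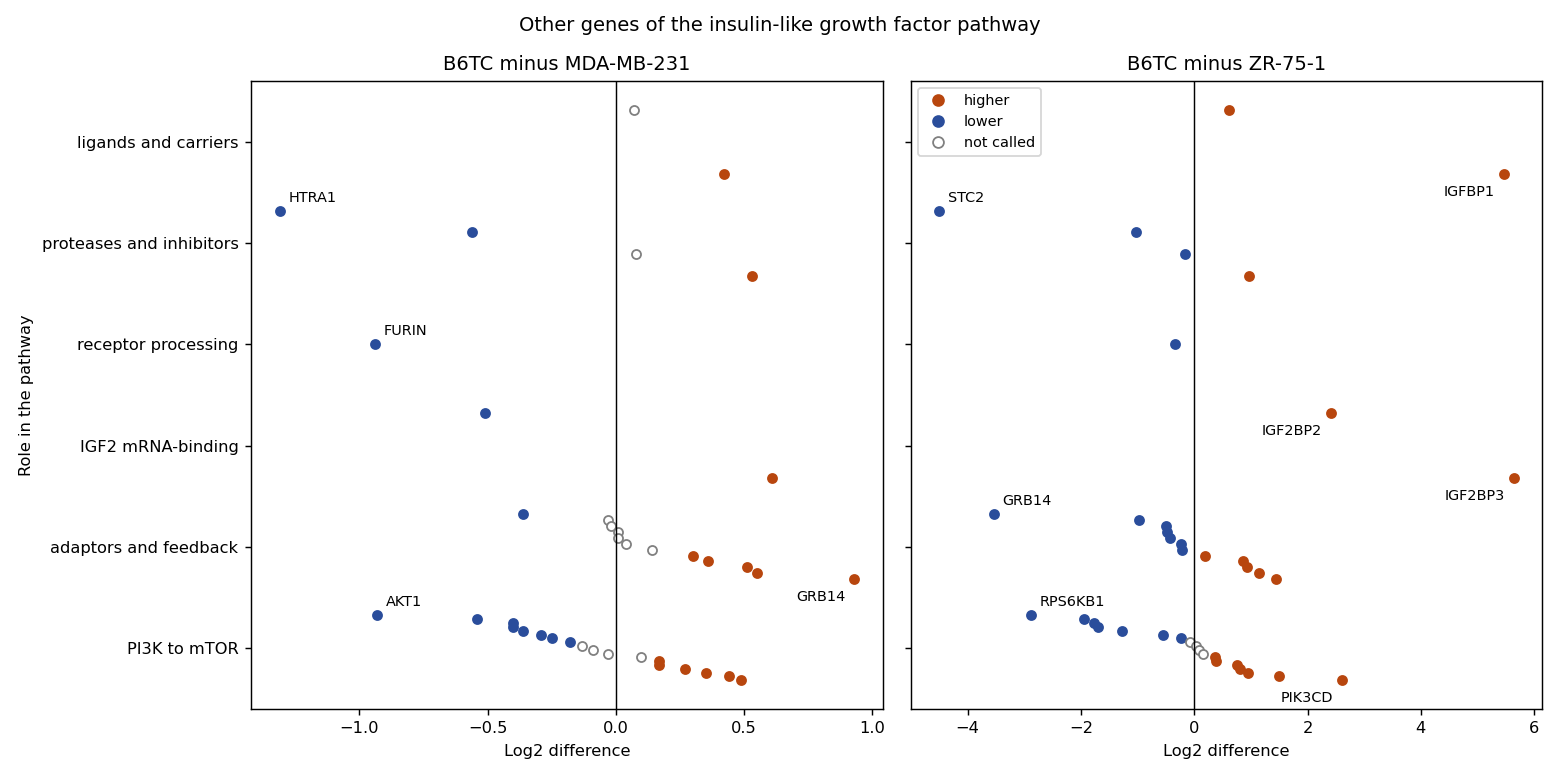
Log2 difference of B6TC minus MDA-MB-231 (left) and B6TC minus ZR-75-1 (right) for the 39 tested pathway genes, 1 point per gene, grouped by role and colored by the limma call; genes far from 0 are named and the panels have different axes. HTRA1 at -1.31 is the only gene past 2-fold against MDA-MB-231, while IGF2BP3 and IGFBP1 pass 5 against ZR-75-1.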

How the data were processed

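The authors hybridised labelled RNA of 3 technical replicates of each line and deposited log2 values, which per the labels were made with RMA in Affymetrix Expression Console; the paper's methods instead name GC-RMA, which corrects background differently, and another RNA kit. Which was used for the deposited values is not settled. The table held 54675 probe sets, of which 62 controls were left out. Gene names came from the platform annotation, in which 41091 probe sets have 1 symbol, 1801 several and 11721 none. Probe sets of at least 6 on at least 3 of 9 arrays (21095) were fitted together on all 9 arrays with limma 3.58.1 in R 4.3.3, with Benjamini-Hochberg adjustment over all of them and a call at 0.05. The fit had 6 residual and 3.68 prior degrees of freedom, and the script was tested on simulated data. The text names every member probe set, and of the pathway list the 4 largest called differences of each comparison plus up to 2 genes per role. Members and lists were chosen with earlier results of these data known. The number of arrays limits the precision, and arrays of 1 line are not separate cultures. After the line means were removed, same-numbered arrays of different lines correlated between -0.102 and 0.176, and differently numbered ones between -0.21 and 0.225. No pairing by number was seen, and whether same-numbered arrays were handled together was not tested.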

Additional observations from a re-analysis of the deposited data

How the results depend on the processing

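Calls of at least 2-fold fell to 813, 6484 and 6635 probe sets for B6TC against MDA-MB-231, B6TC against ZR-75-1 and MDA-MB-231 against ZR-75-1. In the same order they fell to 1, 15 and 15 of 39 pathway genes, where 397, 3346 and 3383 of all 10698 tested genes were called so. Called member probe sets fell to 1 for B6TC against MDA-MB-231. Leaving out probe sets that can read several transcripts (_s_at and _x_at) left 10 and 11 called member probe sets for B6TC and for MDA-MB-231, each against ZR-75-1, since fewer were tested. These 11 were all the tested member probe sets that remained, and the share called over all such probe sets was not computed. The IGFBP2 difference of B6TC from MDA-MB-231 was not called and changed sign to 0.02 with arrays centered on their medians, 0.00 with quantile normalization, 0.21 without B6TC array 1, 0.33 without B6TC array 2 and 0.13 without MDA-MB-231 array 3, but was called at -0.48 by robust regression and at -0.59 without B6TC array 3. With the mean of all probe sets of a gene, IGFBP3 was -0.15 and INSR -0.28 (called) against MDA-MB-231, and INSR was -0.07 against ZR-75-1. IGFBP5 211959_at was not called above MDA-MB-231 without the filter, by robust regression or with the compared lines only, and IRS1 238933_at was called lower by robust regression, with quantile normalization, with the compared lines only or without 1 of 3 single arrays (MDA-MB-231 array 3, ZR-75-1 array 1 or ZR-75-1 array 2); the cause was not tested. INSR between the parental lines was 0.22 (not called) with quantile normalization. Without the filter 14 of 29 member probe sets were called against MDA-MB-231, 4 higher and 10 lower (30.7% of all probe sets). With the array number as a block, called member probe sets were 5 higher and 8 lower against MDA-MB-231 (63.9% of all probe sets), 16 against ZR-75-1 (83.0%) and 18 between the parental lines (83.3%), so the block changed 1 call, that of IRS1 238933_at (adjusted p = 0.0226). Of the other values, 159 counts stayed within 1.5 times of the reported ones, which does not mean that the called genes stayed the same, and 472 single-gene values kept their direction and their side of the threshold.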

Other observations

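The genes most like 5 members across the 9 arrays were found by the distance between centered log2 values, over 10697 genes, with a lower distance for a closer pattern. IGFBP4 was followed most closely by ROR1, a receptor tyrosine kinase (distance 0.417), which averaged 6.59 in B6TC, 7.73 in MDA-MB-231 cells and 4.71 in ZR-75-1, and then by PLPP4 (0.422) and POU3F2 (0.486). IRS2 was followed by PDLIM7 (0.20), at 7.37 in B6TC, 8.09 in MDA-MB-231 cells and 5.76 in ZR-75-1, and by CAMK1 (0.247) and PRKAG2 (0.252). IGFBP7 was followed by MDFIC (0.277), PAG1 (0.353) and HMGA2 (0.443), of which HMGA2, a chromatin protein, averaged 7.71 in B6TC, 8.20 in MDA-MB-231 cells and 3.19 in ZR-75-1. IGFBP3 was followed by WDR35 (0.314), SPRY1 (0.355) and NFE2L3 (0.364). IGFBP2 was followed by ELOVL2 (0.519), ABAT (0.783) and BCAS3 (0.82), all high in ZR-75-1. The distances rest on 3 lines and say nothing of shared control.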
